A study of Mus musculus with 27 samples.

Results

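Distal regulatory windows that were accessible in Kupffer cells of mice fed a diet modelling non-alcoholic steatohepatitis (NASH), and that were missing from the corresponding control list, are described here. A window belongs to this set when the authors' table of merged ATAC-seq peaks names the 20-week diet list of Tim4-positive cells and not the control list, and when it lies more than 1000 bp from the nearest annotated transcription start site (TSS). Of 70300 windows, 5684 met both conditions. A further 1151 windows on the diet list alone lay within 1000 bp of a TSS and 1 had no distance, so they were left out. The set is compared with the 28650 distal windows on both ATAC lists and the 15234 on the control list only. The authors' ATAC peak scores differ between these sets, with medians of 17.3 in the set, 23.4 on both lists and 10.8 on the control list only. Their lowest scores were 13.9, 11.1 and 8.3, and the comparisons were not matched for score. Just inside the limit, at 1005 bp, the window near Syne1 held 1.06 and 2.65 normalised H3K27ac tags in control and 18.7 and 13 under the NASH diet, and that near Fbxo43 1.06 and 0 against 1.07 and 0.52. Just outside, those at 999 bp near 9330136K24Rik (3.17 and 7.07 against 3.20 and 1.56) and at 991 bp near Atpaf2 (3.17 and 0.44 against 0 and 1.04) were left out. The rule used 2 peak lists and a distance. It used no H3K27ac, LXR, ATF3 or P300 value. A peak missing from the control list is not shown to be closed in control cells, and the ATAC libraries themselves were not analysed here.

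The series holds 27 ChIP-seq samples, and 4 of them carry the H3K27ac values used here, with 2 libraries per diet. All 4 came from Kupffer cells sorted for high F4/80 and for Tim4 out of livers of C57BL/6J mice, on a control diet in 1 group and on the NASH diet in the other. In all 4, liver perfusion and digestion were done with flavopiridol, an inhibitor of the kinases that drive transcription, per the labels' protocols. Mouse age, diet composition and the number of animals behind a library are unstated in the sources used here. No label ties the libraries of a diet to different mice, so a p-value reflects library-to-library spread alone, and that spread may be technical. For LXR, ATF3 and P300 the authors deposited 1 list of reproducible sites per factor and diet, each made from 2 libraries. Left aside were 10 inputs and an H3K27ac sample of large peritoneal macrophages. The time on the diet may differ between the ATAC list and the factor lists.

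Kupffer cells are the resident macrophages of the liver. Distal enhancers of such cells become accessible when transcription factors displace nucleosomes, and active ones carry acetylation of lysine 27 on histone H3 (H3K27ac), which the acetyltransferase P300 deposits. LXR is a nuclear receptor for oxysterols that binds with its partner RXR and controls cholesterol export and lipid synthesis. ATF3 is a stress-induced factor of the basic leucine zipper family, whose members bind AP-1 and CRE sequences.

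Some of these windows overlap promoter stretches that RefSeq gives for other, mostly non-coding, genes (build GRCm38.p6, whose chromosome coordinates are those of mm10), and these are the windows for which sequence was at hand. Of the 5684 windows, 47 touched such a stretch, which runs from 250 bases before to 50 after a start. The 6 shown next are covered over at least 150 bases, and each lies under an ATF3 site and a site of at least 1 other factor that were on the NASH list and not on the control list. They were chosen after their values had been seen. Capitals mark the AP-1 sequence TGANTCA, searched on both strands, and each line reads 5′ to 3′ on the strand of the RefSeq gene.
Slc41a2 window, chr10:83343885-83344085 (+ strand): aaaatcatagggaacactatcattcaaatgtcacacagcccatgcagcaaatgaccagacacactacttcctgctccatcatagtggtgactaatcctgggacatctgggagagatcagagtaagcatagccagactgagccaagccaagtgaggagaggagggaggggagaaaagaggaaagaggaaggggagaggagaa
Slc38a9 window, chr13:112673254-112673454 (- strand): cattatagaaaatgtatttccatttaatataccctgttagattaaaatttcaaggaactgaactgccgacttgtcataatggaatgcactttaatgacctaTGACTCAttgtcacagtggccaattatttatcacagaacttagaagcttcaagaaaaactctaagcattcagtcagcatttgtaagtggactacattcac
Serpinb9 window, chr13:33005758-33005958 (- strand): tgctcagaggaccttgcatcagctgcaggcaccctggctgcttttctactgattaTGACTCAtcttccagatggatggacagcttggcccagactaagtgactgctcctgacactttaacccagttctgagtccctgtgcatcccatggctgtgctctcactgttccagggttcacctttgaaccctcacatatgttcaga
4930431P22Rik window, chr14:76780611-76780760 (+ strand): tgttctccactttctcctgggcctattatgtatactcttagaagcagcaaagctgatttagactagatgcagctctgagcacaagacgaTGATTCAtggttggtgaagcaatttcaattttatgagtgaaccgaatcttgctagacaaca
Dennd4c window, chr4:86710902-86711087 (+ strand): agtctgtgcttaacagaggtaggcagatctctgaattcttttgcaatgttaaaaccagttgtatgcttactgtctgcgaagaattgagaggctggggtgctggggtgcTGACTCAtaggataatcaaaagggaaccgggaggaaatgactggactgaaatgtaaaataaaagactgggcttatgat
Prdm1 window, chr10:44428018-44428218 (- strand): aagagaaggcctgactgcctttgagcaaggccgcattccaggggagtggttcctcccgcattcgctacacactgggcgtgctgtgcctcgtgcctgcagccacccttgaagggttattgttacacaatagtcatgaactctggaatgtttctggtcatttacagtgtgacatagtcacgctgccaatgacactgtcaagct

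In 4 of the 6, AP-1 occurs once, and in the Slc41a2 and Prdm1 windows it does not occur. The Slc41a2 window held no tag in either control library and 9.07 and 9.88 normalised tags in the NASH libraries. The Dennd4c window held 1.06 and 0.88 in control and 6.93 and 3.64 under the NASH diet. For the Slc38a9 window, by contrast, the values were 5.28 and 4.42 against 6.4 and 6.24, although its ATF3 and P300 sites were on the NASH lists only. Over the 50 promoter stretches touched by the set, 12 (24%) hold AP-1, against 14.7% of 462 stretches touched by distal windows on both ATAC lists and 6.62% of 136 touched by windows on the control list only. All 32851 stretches hold it in 7.81% and those of the 10497 starts of Gm-numbered genes in 8.83%. The CRE sequence TGACGTCA, which cannot contain AP-1 as written, was in 1 of the 50 (2%) and in 1.79% of all stretches. The core sequence AGGTCA of nuclear receptor sites was in 22% of the 50 and 16.3% of all stretches. It was in 19.5% of those touched by distal windows on both lists and 14.0% of those touched by windows on the control list only. Stretches of Gm-numbered genes, which make up 42 of the 50, hold it in 19.7%. These are descriptions of letters over few stretches, and sequence of the other windows was not used here.

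Total tags came to 9468035 and 22615879 in the control libraries and to 18749728 and 19231109 in the NASH libraries, and between 7.91% and 9.60% lay in the windows. The authors scaled tags to 10000000 per library, and these normalised tags are the unit used throughout. Summed over the promoter windows of 8 Kupffer cell markers, H3K27ac was 382 and 345 in control and 230 and 192 under the NASH diet. Clec4f (16.9 and 12.8 against 6.4 and 4.16), Vsig4 (4.22 and 6.63 against 2.67 and 2.08), Marco (2.11 and 3.54 against 0 and 0.52) and C1qa (66.5 and 69.0 against 54.9 and 51.5) were lower without overlap, and Adgre1 overlapped (32.7 and 9.28 against 11.2 and 5.72). Both NASH libraries also lay below both control libraries at 34.3% of promoter windows on both ATAC lists. Cd5l held 116 and 90.2 against 108 and 92.0, and Csf1r, the receptor for colony-stimulating factor, 38.0 and 26.1 against 40.5 and 32.8. Timd4, which encodes the Tim4 of the sort and is part of the sum, held 106 and 127 in control and 6.93 and 3.64 under the NASH diet, the largest fall of the 8. Of 45 markers of other liver and blood cells, 7 had a promoter window, and these stayed at or below 2.60 in every library except the neutrophil gene Csf3r (44.7 to 98.6) and the monocyte gene Cx3cr1, which went from 3.17 and 1.33 to 10.7 and 6.76. The monocyte markers Ly6c2 and Ccr2 had no promoter window. The set itself had 14 windows near 9 of the 45 genes, of which 1 was tested and 0 were called by limma (0 at an unadjusted p under 0.05, and 0 called by edgeR or DESeq2). Of the 14, 6 had both NASH libraries above both control libraries, a pattern found at 35.6% of the set. Whether other cells contributed to the results was not tested.

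The set carried little H3K27ac in control cells and more under the NASH diet. The median window held 1.06 and 0.88 normalised tags in the control libraries and 2.13 and 2.08 in the NASH libraries, so the diets did not overlap. Over all 70300 windows the medians went the other way, from 6.34 and 4.86 to 4.27 and 4.16. Windows of the set without any tag made up 32.7% and 27.9% in control and 14.1% and 15.0% under the NASH diet. Where no tag was counted, up to 3 tags could still be missed, or 3.17, 1.33, 1.60 and 1.56 normalised tags in the 4 libraries, so most single windows lay near the limit of detection. The share of all tags in windows that fell in the set was 2.56% and 2.65% in control and 3.83% and 3.85% under the NASH diet.

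**Figure D1:**
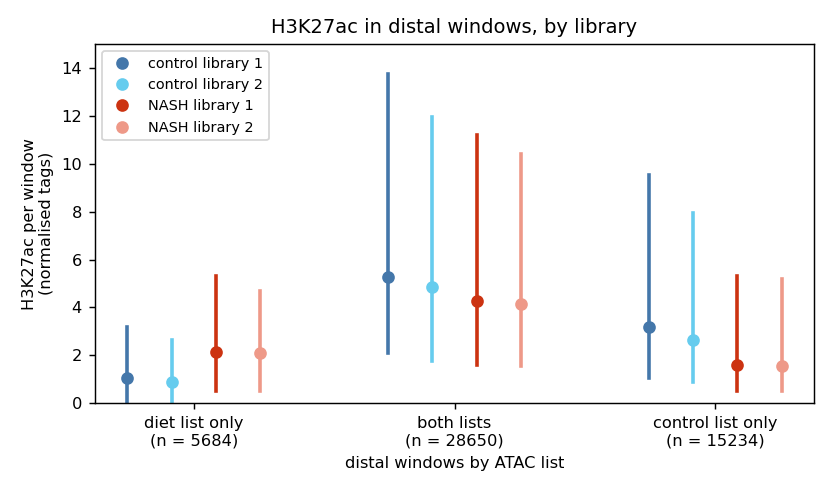
H3K27ac in normalised tags per distal window (y axis) in the 4 libraries, for windows on the diet ATAC list only, on both lists and on the control list only (x axis); points are medians over windows and bars run from the lower to the upper quartile. The diet-only windows have medians of 1.06 and 0.88 in control and 2.13 and 2.08 under the NASH diet, while the other sets have lower medians under the NASH diet.

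Both NASH libraries lay above both control libraries in 2023 windows of the set (35.6%, against 14.8% of all windows), and both lay below in 605 (10.6%, against 30.8%). Among distal windows on both ATAC lists the shares were 16.4% and 28.9%, and among those on the control list only 9.01% and 36.3%. No test was made of these differences between sets, since windows share libraries. In 465 windows of the set there was no tag in either control library and at least 1 in both NASH libraries, and in 64 the reverse held. The unfiltered change of the median window, on the scale of log2(value + 1) and relative to the median of all windows, was 0.57 for the set, 0.04 for distal windows on both lists and −0.19 for those on the control list only.

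More of these windows had a factor site on the NASH lists than on the control lists. Of the 5684 windows, 218 overlapped an ATF3 site of the control list (3.84%, exact 95% interval 3.35 to 4.37%, covering counting error only) and 2863 a site of the NASH list (50.4%, 49.1 to 51.7%). LXR sites were at 692 windows (12.2%, 11.3 to 13.1%) and 2312 windows (40.7%, 39.4 to 42.0%). P300 sites were at 241 (4.24%, 3.73 to 4.80%) and 2267 (39.9%, 38.6 to 41.2%). With 1 list per factor and diet there is no replicate check of these shares. The NASH lists were longer, with 38828 against 16109 ATF3 sites, 52628 against 25219 P300 sites and 51709 against 44463 LXR sites, and shares over all windows were higher too. Over all 70300 windows ATF3 sites were at 21.4% in control and 42.0% under the NASH diet, LXR sites at 52.7% and 57.6%, and P300 sites at 32.3% and 58.9%. NASH sites of LXR and P300 were thus less frequent in the set than over all windows and those of ATF3 more frequent, and any NASH site was at 66.5% against 71.4%.

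An ATF3 site on the NASH list and not on the control list was found at 47.3% of the set and 24.2% of all windows. For LXR the shares were 30.7% and 12.5%, and for P300 36.6% and 29.1%. At distal windows on both ATAC lists they were 31.1% for ATF3, 13.1% for LXR and 34.6% for P300. Only a window without a control site can gain one. For P300, 2078 windows of the set gained a site and 3365 had none on either list. Over all windows the counts were 20456 and 27132, and at distal windows on both ATAC lists 9926 and 6582. Among windows without a control site, P300 gains were thus less frequent in the set than in either. The reverse, a site on the control list alone, was found at 0.774% of the set for ATF3 (3.57% of all windows), 2.23% for LXR (7.53%) and 0.915% for P300 (2.48%). Only a window with a control site can lose it, and the set had few of these. Control ATF3 sites were missing from the NASH list at 44 of 218 windows of the set and 2510 of 15059 over all windows. For LXR the counts were 127 of 692 and 5296 of 37040, and for P300 52 of 241 and 1746 of 22712. Among windows with a control site, loss was thus not rarer in the set. Distal windows on both ATAC lists started from higher shares, with ATF3 at 35.0% in control and 62.3% under the NASH diet, LXR at 66.9% and 74.5%, and P300 at 42.4% and 75.4%. On the control list only, LXR sites were at 39.8% of the distal windows in control and 38.2% under the NASH diet, ATF3 sites at 10.1% and 18.8% and P300 sites at 16.7% and 36.9%.

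**Figure D2:**
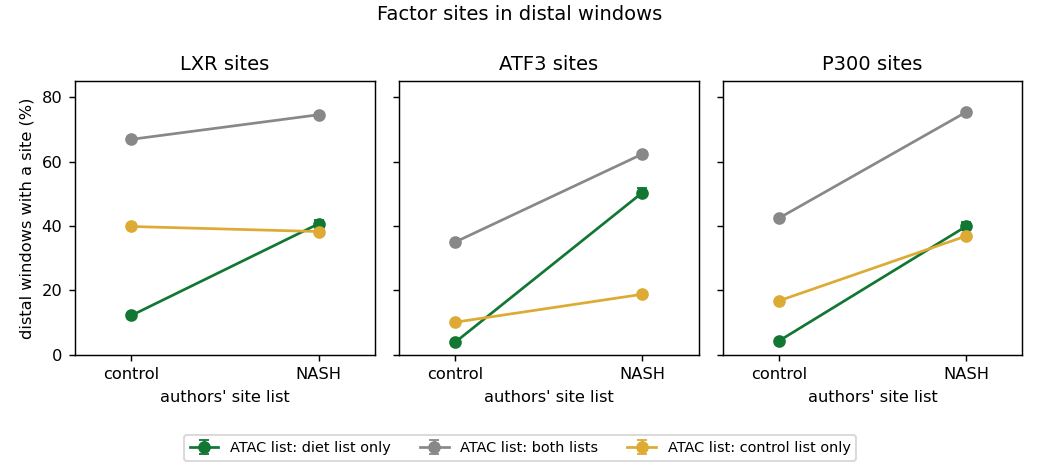
Percent of distal windows (y axis) that overlap a site on the authors' control or NASH list (x axis) of LXR, ATF3 or P300, with exact 95% intervals that are mostly narrower than the points; colours give the ATAC list of the window. For diet-only windows ATF3 goes from 3.84% to 50.4%, LXR from 12.2% to 40.7% and P300 from 4.24% to 39.9%.

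In the NASH lists, 1293 windows of the set (22.7%) overlapped sites of all 3 factors (32.8% over all windows and 53.0% of distal windows on both lists), 829 an ATF3 site alone, 311 an LXR site alone and 269 a P300 site alone, and 1905 (33.5%) had no site. All 3 were gained together at 922 windows (16.2%, against 3.75% of all windows and 4.55% of distal windows on both lists). Only windows without any control site could do so, and a control site was at 15.2%, 58.1% and 72.1% of these sets. Where all 3 factors had a NASH site, H3K27ac had medians of 1.06 and 0.88 in control and 2.67 and 2.60 under the NASH diet, and 43.5% of windows had both NASH libraries above both control libraries. Without any NASH site the medians were 1.06 and 0.88 against 1.60 and 1.56 and the share was 30.8%, still above the 14.8% of all windows. At the 565 windows with an LXR site on both lists the share was 24.6%, and medians were 3.17 and 2.21 against 3.20 and 3.12. By the authors' enrichment score, the median site lay at percentile 36.6 of the NASH LXR list, against 67.6 at distal windows on both lists and 44.1 at those on the control list only, and at percentile 34.6 of the NASH P300 list, against 65.3 and 38.2.

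The ATAC peak score, which the rule did not use beyond list membership, was compared with the factor sites. When the windows were ranked by this score and split into 4 groups of 1421, ATF3 sites of the NASH list were at 34.2%, 44.2%, 51.4% and 71.7% from the lowest to the highest group. LXR went from 33.6% to 54.7% and P300 from 32.4% to 55.8%. Control ATF3 sites stayed between 3.24% and 4.22%, and control LXR sites were at 13.4% in the lowest group and 9.85% in the highest. The share with both NASH libraries above both control libraries in H3K27ac was 26.7% in the lowest group and 47.4% in the highest. The score is the authors' own, and the sources used here do not say how scores of merged peaks were joined. The 2 highest scores (7454.5 and 6049.3) belong to windows near Col19a1 that held no H3K27ac tag in any library and no site, and the next highest was 133.6 near Rn45s, a ribosomal RNA gene.

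**Figure D3:**
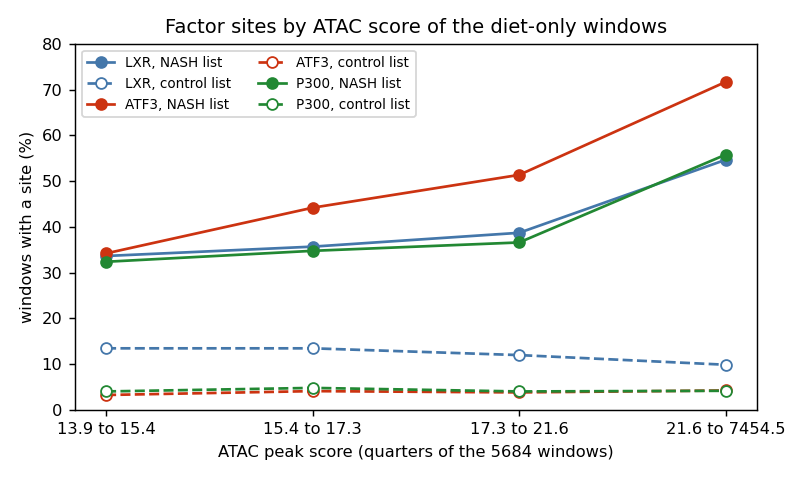
Percent of the 5684 diet-only distal windows with a site on the authors' NASH lists (filled points) or control lists (open points) of LXR, ATF3 and P300 (y axis), by 4 equal groups of the ATAC peak score (x axis, with the score range of each). NASH ATF3 sites go from 34.2% to 71.7% and control ATF3 sites stay between 3.24% and 4.22%.

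The windows were spread over introns (2892, 50.9%) and intergenic sequence (2539, 44.7%), with a median distance to the TSS of 22423 bp, against 17341 bp for distal windows on both lists. Windows within 10000 bp of a TSS had both NASH libraries higher in 34.4%, those from there to 50000 bp in 36.7% and those farther away in 35.0%. ATF3 sites of the NASH list were at 45.5%, 51.1% and 54.6% of these groups. LTR retrotransposons were named at 504 windows (8.87%, the same share as at distal windows on both lists), with both NASH libraries higher in 31.2%. The median window lay 5934 bp from the nearest window on both ATAC lists, and 60.8% lay within 10000 bp of one.

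Few single windows held enough tags for a test. limma, fitted on the log2 values of 35947 windows kept by edgeR's filterByExpr, tested 1264 windows of the set. Calls required a log2 change of 1 or more in size and a Benjamini-Hochberg adjusted p below 0.05. By this rule 243 windows of the set were raised (19.2% of those tested, against 2.00% of all tested windows) and 26 were lowered (2.06%, against 4.59%). Of the 243, 203 were above the cut-off of the filter in both NASH libraries and not in both control libraries. The other 40 were above it in both libraries of both diets. Windows of the first kind are said below to have passed through the NASH libraries only, although 1 control library could also be above the cut-off. Their entry to the test favoured a higher level under the NASH diet. Under a filter on the mean of all 4 libraries, which does not know the diets, 186 of 1143 windows of the set were raised (16.3%, against 1.81% of all) and 29 lowered (2.54%, against 4.69%). The count of raised windows was 66 if NASH library 1 was dropped and 59 if NASH library 2 was, with lowered counts of 14 when control library 1 was left out, 14 when NASH library 1 was and 7 when NASH library 2 was. DESeq2 raised 144 and lowered 1. With TMM scaling, which moved the median of all tested windows from −0.26 to −0.0039, 303 windows of the set were raised and 10 lowered (3.30% and 2.49% of all tested windows).

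The raised windows lay near 175 genes, of which 45 had at least 2 and 13 at least 3, and no gene had both a raised and a lowered window. At the median they held 1.06 and 1.33 normalised tags in control and 14.9 and 14.6 under the NASH diet, and 31 held no tag in either control library. ATF3 sites of the NASH list were at 52.3% of them, P300 sites at 49.0% and LXR sites at 46.1%, against 50.4%, 39.9% and 40.7% of the whole set and 41.7%, 44.1% and 43.9% of tested windows that passed neither call, while 77 of the 243 had no NASH site of any factor. Changes of single windows are given below as log2 of NASH over control relative to the median of all tested windows, which lay at −0.26 on the authors' scaling. The call itself was made before that subtraction. Counts of called windows in the gene lists below stand against the 19.2% raised over the tested windows of the set, and many of the windows entered the test only because they were high under the NASH diet. Nearest genes are those of the authors' annotation, and no window was linked to a gene in any other way.

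Windows near Traf1 and Tnfaip3, genes of tumour necrosis factor and NF-κB signalling, were among those with the smallest adjusted p. Traf1 encodes a signalling adaptor that binds TNF receptors. Its intergenic window at −1809 bp (chromosome 2, 34963481 to 34963681) held 4.22 and 9.73 normalised tags in control and 99.2 and 73.8 under the NASH diet, a relative log2 change of 3.79 (SE 0.36, limma adjusted p = 4.32e-05). Its neighbour at −1326 bp held 7.39 and 3.98 against 40.0 and 34.3 (2.82, SE 0.39, adjusted p = 9.98e-04). Tnfaip3 encodes A20, a ubiquitin-editing inhibitor of NF-κB. Its intronic window at 3505 bp (chromosome 10, 19008358 to 19008558) held 12.7 and 12.8 against 98.1 and 76.4 (2.93, SE 0.28, adjusted p = 6.99e-05), and its neighbour at 3228 bp 23.2 and 27.4 against 98.1 and 85.3 (2.08, SE 0.25, adjusted p = 5.31e-04). Neither Tnfaip3 window overlapped a site of any factor in either diet. By contrast, 2 raised windows between 15417 and 16239 bp on the same side of Tnfaip3 had NASH sites of all 3 factors, and held 3.17 and 1.33 against 20.8 and 17.2, and 0 and 3.54 against 14.9 and 8.84. Over the NF-κB and inflammatory list, 16 of 44 genes had 36 windows of the set, of which 18 were tested, 6 raised (4 of them through the NASH libraries only) and 0 lowered, all 6 near Traf1 or Tnfaip3. Median H3K27ac of the 36 windows was 3.17 and 1.33 against 6.67 and 4.94.

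**Figure D4:**
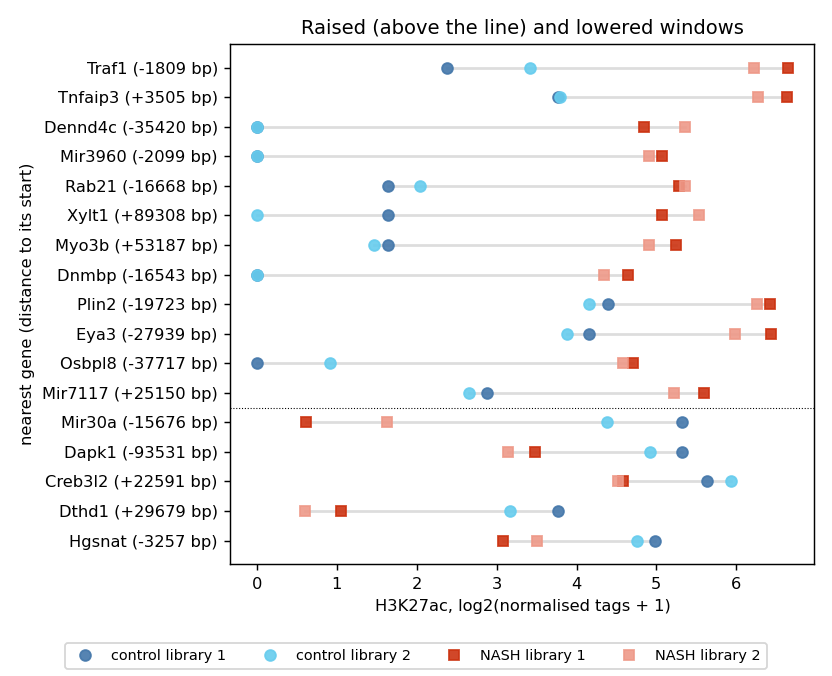
H3K27ac on the scale of log2(normalised tags + 1) (x axis) in the control libraries (circles) and NASH libraries (squares) for the 12 raised windows with the smallest adjusted p, 1 per gene, above the dotted line, and the 5 lowered ones below it, each named by its nearest gene and its distance to the TSS (y axis). The diets do not overlap in any of the 17, a property the choice required.

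Several of the windows had no tag in control cells. These passed the filter through the NASH libraries only, as did those named here near Rab21, Myo3b and Osbpl8, without a control library above its cut-off. A higher level under the NASH diet was thus a condition of their test. The raised windows near Traf1 were in the same class, but at each of them 1 control library was also above the cut-off. These were control library 2 at −1809 bp (22 tags) and control library 1 at −1326 bp (7 tags). There a higher level was favoured and not required. The window 35420 bp before Dennd4c (chromosome 4, 86713035 to 86713235), a gene for a Rab guanine nucleotide exchange factor, held 0 and 0 normalised tags in control and 27.7 and 40.0 under the NASH diet (limma adjusted p = 6.99e-05). Near Mir3960, a microRNA gene, the window at −2099 bp held 0 and 0 against 32.5 and 29.1 (adjusted p = 8.22e-05). The intronic window near Dnmbp held 0 and 0 against 24.0 and 19.2 (adjusted p = 2.93e-04), a call that ended without NASH library 1 (0.0983) or 2 (0.0710). Rab21, a small GTPase of endosomes, had 2.11 and 3.10 against 37.9 and 40.0 at −16668 bp, with a change of 3.74 (SE 0.42, adjusted p = 1.95e-04). An intronic window of Myo3b, inside an RLTR21 retrovirus-like element, went from 2.11 and 1.77 to 36.8 and 29.1 (3.78, SE 0.45). Osbpl8, which encodes an oxysterol-binding protein, had 0 and 0.88 against 25.1 and 22.9 at −37717 bp (adjusted p = 3.38e-04), in an MTC retrovirus-like element with an LXR site on the NASH list. Near Eya3, a window at −27939 bp went from 16.9 and 13.7 to 85.3 and 62.4 (2.45, SE 0.29), and 1 at −28232 bp, with NASH sites of all 3 factors, from 9.51 and 6.63 to 45.9 and 44.7 (2.63, SE 0.34). Of the 12 most clearly raised windows, Dnmbp was the only one whose call ended without any 1 library.

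Windows near genes of lipid-laden and scar-associated macrophages were raised in 7 of 19 tested (36.8%, against 19.2% over the set), 5 of the 7 having passed the filter through the NASH libraries only, and 0 were lowered. The 7 lay near 4 genes. DESeq2 raised 3, TMM scaling 8 and edgeR 9. The list had 40 windows of the set near 18 of its 32 genes, with medians of 1.06 and 1.77 in control and 6.14 and 4.68 under the NASH diet, and both NASH libraries were higher in 27 of the 40 (67.5%, against 35.6% of the set). Plin2 encodes a coat protein of lipid droplets. Its window at −19723 bp (chromosome 4, 86689682 to 86689882) held 20.1 and 16.8 against 84.8 and 75.9, a change of 2.33 (SE 0.27, limma adjusted p = 2.93e-04). Spp1, which encodes osteopontin, had 0 and 0.44 against 23.5 and 15.1 at −9050 bp (adjusted p = 6.27e-04), with LXR and ATF3 sites on the NASH lists only. Cd9, a tetraspanin, had 6 windows of the set and all 6 had both NASH libraries higher. Of these, 3 were raised, among them the intronic window at 23211 bp (0 and 0.88 against 9.60 and 9.36, adjusted p = 0.00931). Without NASH library 1 or 2 the limma calls ended at Spp1 (adjusted p = 0.156 and 0.0589) and at this Cd9 window (0.344 and 0.435), and the latter also ended with DESeq2 (0.0800).

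On the lysosome and lipid handling list limma raised 4 of the 11 tested (36.4%, 2 of the 4 through the NASH libraries only) and lowered 0, DESeq2 raised 2, and 19 of its 27 windows had an ATF3 site in the NASH list (70.4%, against 50.4% of the set). The raised Plin2 windows, and the Cd36 window of the list given next, were also counted on the lipid-laden and scar-associated list. Besides Plin2, the raised windows lay near subunit genes of the lysosomal proton pump. An intronic window near Atp6v1a held 1.06 and 2.65 against 12.8 and 14.6 (2.68, SE 0.54, limma adjusted p = 0.0116) and 1 at −17349 bp from Atp6v1c1 15.8 and 19.0 against 42.1 and 42.6 (1.5, SE 0.30, adjusted p = 0.0173). On the scavenger and phagocytosis list, 2 of 15 tested windows were raised (13.3%, below the 19.2% of the set) and 0 lowered. DESeq2 raised 1. These were near Cd36, a fatty acid translocase that also takes up oxidised lipoprotein (9.51 and 4.86 against 29.3 and 20.8, adjusted p = 0.0185), and near Itgav, the integrin αv gene (0 and 2.21 against 8 and 7.28, adjusted p = 0.0460). Left-out libraries ended these calls: either NASH library at Atp6v1a (adjusted p = 0.132 and 0.279) and Atp6v1c1 (0.0792 and 0.135), NASH library 1 at Cd36 (0.145), and control library 1 or either NASH library at Itgav (0.280 to 0.520). With DESeq2 the calls at Atp6v1a (0.0559) and Itgav (0.325) ended, as did Itgav with a pseudocount of 0.5 (0.0648).

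Some genes had whole clusters of these windows. The cystine-glutamate antiporter gene Slc7a11 had the most, 13 of its 17 windows in the table, and 0 of the 17 were on the control list only. Summed over the 13, H3K27ac was 7.41 and 4.42 normalised tags in control and 107 and 77.5 under the NASH diet. Both NASH libraries were higher in 12, against 35.6% of the windows of the set. All 6 that were tested had passed the filter through the NASH libraries only, so a higher level there was a condition of the test. limma raised 5, of which 2 lay in introns at 5550 and 40964 bp and 3 between 164334 and 184902 bp before the TSS. The window at 5550 bp held 1.06 and 0 against 13.3 and 17.2 (adjusted p = 0.00223) and that at 40964 bp 0 and 0 against 11.7 and 9.36 (adjusted p = 0.00305). At −171991 bp the values were 0 and 0 against 9.60 and 7.80 (adjusted p = 0.00584). ATF3 sites were gained at 11 of the 13 windows (against 47.3% of the set), LXR sites at 7 (30.7%) and P300 sites at 6 (36.6%). Without either NASH library the calls of these 3 windows ended (adjusted p between 0.0961 and 0.456).

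**Figure D5:**
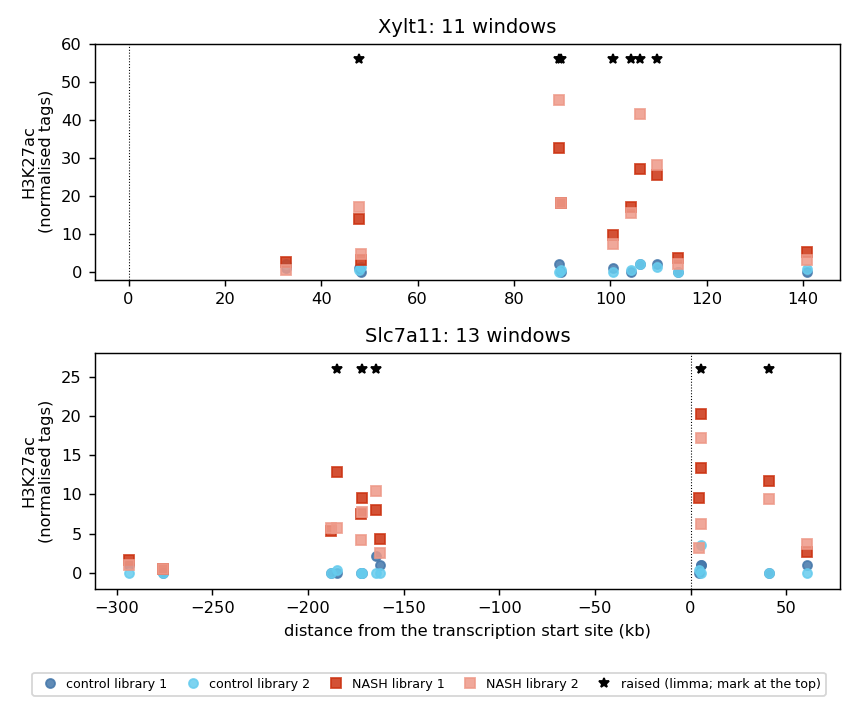
H3K27ac in normalised tags (y axis) of each diet-only distal window near Xylt1 (top) and Slc7a11 (bottom) by its distance from the TSS in kb (x axis; negative is upstream), in the 4 libraries; stars mark windows raised by limma. Control values stay at or below 3.54 in every window drawn, and the NASH values reach 45.2 near Xylt1 and 20.3 near Slc7a11.

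Xylt1, which encodes a xylosyltransferase that starts proteoglycan chains, had 11 windows of the set among 13 in the table, all in introns. Their sum was 9.51 and 9.28 in control and 159 and 184 under the NASH diet. The 7 tested windows, between 47850 and 109717 bp from the TSS, passed the filter through the NASH libraries only and were raised, a direction the filter fixed. The window at 89308 bp (chromosome 7, 117470187 to 117470387) held 2.11 and 0 against 32.5 and 45.2, with a limma adjusted p of 2.01e-04, and had NASH sites of all 3 factors and no control site. The one at 106136 bp held 2.11 and 2.21 against 27.2 and 41.6 (3.71, adjusted p = 2.93e-04). Of the 7 raised windows, 5 had NASH sites of all 3 factors, 1 of ATF3 and P300, and 1 had none. None of the 11 had a control site of any factor.

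Sgms1, a sphingomyelin synthase gene, had 12 windows of the set, with sums of 34.9 and 19.4 against 151 and 132, and 5 were raised, 4 of them through the NASH libraries only. Bcl2l11, which encodes the pro-apoptotic protein Bim, had 10, between 43388 and 76658 bp from its TSS (11.6 and 11.1 against 39.0 and 32.2). Alcam, an adhesion molecule gene, had 9 (3.17 and 4.41 against 37.3 and 28.1). The nearest-gene annotation placed 7 windows near Dscam, which had no other window in the table. Gadd45a, a stress response gene, had 8 windows, and the one at −65250 bp went from 1.06 and 0.44 to 22.9 and 19.2 with NASH sites of all 3 factors (limma adjusted p = 6.58e-04), a call that ended without NASH library 1 (0.0563). The intronic window of Taok3, a kinase gene, at 13825 bp had the same site pattern and went from 1.06 and 2.65 to 22.4 and 25.0 (3.43, SE 0.50, adjusted p = 0.00114).

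Genes of transcription factors had many windows of the set and few that passed the test. On the AP-1, ATF and C/EBP list, 11 of 29 genes had 21 windows, of which 13 were tested and 0 were called by limma (3 at an unadjusted p under 0.05, and 1 raised by edgeR and 0 by DESeq2). Its window with the most H3K27ac, 49686 bp from Fos, held 63.4 and 82.2 against 51.7 and 36.4 (adjusted p = 0.0996). On the list of other macrophage factors 3 of 11 tested windows were raised, all 3 through the NASH libraries only, and 1 was lowered. The raised ones lay near the zinc finger gene Klf6 (1.06 and 2.65 against 12.8 and 15.1, adjusted p = 0.0109), the runt factor gene Runx2 (1.06 and 0 against 6.4 and 9.88, 0.0199) and Mef2c (0 and 0.88 against 6.4 and 8.84, 0.0202). The lowered one lay in an intron near Klf2, 1274 bp from the TSS (28.5 and 33.2 against 14.4 and 13, a relative change of −0.85, adjusted p = 0.0467). That call ended with TMM scaling (0.125), edgeR (0.100), DESeq2 (0.516) and a pseudocount of 0.5 (0.0522), and without any 1 of the 4 libraries (0.0671 to 0.252). Calls also ended without either NASH library at Klf6 (0.118 and 0.279), without control library 2 or NASH library 1 at Runx2 (0.0877 and 0.316) and without control library 1 or NASH library 1 at Mef2c (0.0945 and 0.372). Without NASH library 2 the Runx2 and Mef2c windows did not pass the filter and were not tested. With DESeq2 none of the 3 passed (0.05 to 0.160).

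Signalling genes gave single calls. The kinase signalling list had 48 windows, 32 of them with an ATF3 site on the NASH list (66.7%, against 50.4% of the set). Of 14 tested, 2 were raised (14.3%, against 19.2% over the set). These were an intronic window 1077 bp from Pik3cb, a catalytic subunit of PI3-kinase (8.45 and 5.31 against 30.4 and 48.4, a change of 2.61, SE 0.38, limma adjusted p = 0.00155), and 1 near the regulatory subunit gene Pik3r5 (6.34 and 1.33 against 18.7 and 17.2, adjusted p = 0.0193). The list of TGF-β, BMP and growth factor genes had 2 raised (12.5%) and 1 lowered of 16 tested. The window assigned to Tgfb3 lay 119486 bp from its TSS, in intron 29 of 32 of an annotated transcript. It held 2.11 and 2.21 against 16.0 and 10.9 (adjusted p = 0.0170). Pdgfb had 2.11 and 0.44 against 12.3 and 8.84 (0.0198) and Tgif1, a corepressor gene, 22.2 and 31.0 against 6.93 and 12 (0.0323). Without either NASH library the calls ended at Pik3r5 (0.0966 and 0.107), Tgfb3 (0.292 and 0.160) and Pdgfb (0.373 and 0.291), and the Tgif1 call ended with TMM scaling (0.0854), edgeR (0.0526), without control library 2 (0.0997) or without NASH library 1 (0.181). With DESeq2 the calls at Tgfb3 (0.0657), Pdgfb (0.0752) and Tgif1 (0.390) ended. None of the 6 tested windows of the Notch list and 2 of the interferon list was called by limma, edgeR or DESeq2 (1 and 0 at an unadjusted limma p under 0.05). The windows with the most H3K27ac on those lists lay near Rbpj (20.1 and 15.9 against 29.9 and 27) and Oas3 (6.34 and 9.29 against 8.53 and 7.28).

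H2-Eb1, an MHC class II gene, had the 1 raised window of the 3 tested on the antigen presentation list, in an intron 1557 bp from the TSS. It held 8.45 and 11.9 against 29.3 and 40.0 (1.93, SE 0.35, limma adjusted p = 0.00803), with ATF3 and P300 sites on the NASH lists only, and its call ended without NASH library 2 (0.128). Of the LXR target list, 4 of 27 genes had 7 windows, and 1 of 5 tested was raised, 21806 bp before the cholesterol exporter gene Abca1 (0 and 0.88 against 8.53 and 6.24, adjusted p = 0.0223). It had an ATF3 site and no LXR site on the NASH lists, and its call ended without either control library (0.108 and 0.0591) or NASH library 2 (0.490), and with DESeq2 (0.177). Without NASH library 1 it did not pass the filter and was not tested. Genes of Kupffer cell identity had 18 windows of the set near 10 of 37 genes. Of these 5 were tested and 0 called by limma, edgeR or DESeq2 (0 at an unadjusted limma p under 0.05), and medians were 2.11 and 1.77 in control against 1.87 and 1.04 under the NASH diet. The one with the most H3K27ac, in an intron of Zeb2, held 16.9 and 23.9 against 38.4 and 21.3. On the monocyte list 3 windows were tested and 0 called by limma, edgeR or DESeq2 (0 at an unadjusted limma p under 0.05), and that near Fcgr4 held 40.1 and 50.4 against 36.8 and 40.0.

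The 26 lowered windows lay near 26 genes, with H3K27ac medians of 34.3 and 29.0 in control against 11.5 and 10.9 under the NASH diet. A lowered call needs enough tags in control, so a high control level was in part a condition of the call. Tested windows that passed neither call had control medians of 10.6 and 8.84. Near Mir30a, a microRNA gene, an intergenic window at −15676 bp (chromosome 1, 23256493 to 23256693) held 39.1 and 19.9 in control and 0.53 and 2.08 under the NASH diet, a change of −3.48 (SE 0.53, limma adjusted p = 6.14e-04). Dapk1, a death-associated kinase gene, had 39.1 and 29.2 against 10.1 and 7.80 at −93531 bp (−1.55, SE 0.36, adjusted p = 0.00524), although the window had NASH sites of all 3 factors. Creb3l2, a membrane-bound leucine zipper factor gene, had 48.6 and 60.1 against 22.9 and 21.8 (−0.98, adjusted p = 0.0119), also with NASH sites of all 3. Dthd1 (12.7 and 7.96 against 1.07 and 0.52, adjusted p = 0.0125) and the lysosomal acetyltransferase gene Hgsnat (30.6 and 26.1 against 7.47 and 10.4, 0.0144) followed. The window near Itga9, the integrin α9 gene, was the 1 lowered of 12 tested on the integrin, adhesion and matrix protease list (41.2 and 29.6 against 13.9 and 12, 0.0179), where 1 was raised, that near Itgav. Calls ended at Creb3l2 without NASH library 2 (adjusted p = 0.0668), at Dthd1 without either control library or NASH library 2 (0.101 to 0.238), at Hgsnat without control library 1 or NASH library 1 (0.0531 and 0.0633) and at Itga9 without control library 1 or NASH library 2 (0.110 and 0.0969). With DESeq2 the calls at Dapk1, Creb3l2, Dthd1, Hgsnat and Itga9 ended (adjusted p = 0.0740 to 0.276), and with TMM scaling Creb3l2 had a log2 change of −0.97, under the size threshold.

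A small part of the set already held many H3K27ac tags in control cells. In 15 windows at least 1 control library passed 100 normalised tags, and in 13 at least 1 NASH library did. The highest was a satellite repeat window (GSAT_MM) near Rab10os, with 314 and 458 in control and 757 and 810 under the NASH diet (1.3, SE 0.20, limma adjusted p = 0.00400). It had LXR and P300 sites on both the control and the NASH lists. Inputs were left aside, so whether the tags of this repeat window reflect acetylation was not tested. Its log2 change before subtraction was 0.77 without control library 1 and 0.997 without NASH library 2, under the limit of the call. Near Zfp36, which encodes the mRNA decay factor tristetraprolin, the window at −3350 bp held 149 and 178 against 186 and 183 and no factor site (adjusted p = 0.632). Rasgef1b (84.5 and 117 against 180 and 165, adjusted p = 0.0335) and Bach2, at −166725 bp (80.3 and 117 against 172 and 157, 0.0452), passed the p threshold and not the size threshold. Both passed it with TMM scaling (log2 changes of 1.06 and 1.03) and without control library 2 (1.02 and 1.03). The window 59564 bp before 1810026B05Rik held 84.5 and 129 against 143 and 146 (0.222).

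Promoters of the same genes, which the rule did not use, are given for comparison. Shared promoter windows are those on both ATAC lists within 1000 bp of a TSS. At genes with at least 1 window of the set, limma raised 44 of 2816 tested (1.56%, against 0.592% of all shared promoters) and lowered 46 (1.63%, against 2.16%). The raised count was 15 without NASH library 1 and 17 without NASH library 2, while leaving out control library 1, control library 2 or NASH library 2 gave lowered counts of 17, 205 and 15. With TMM scaling 81 were raised and 17 lowered, with edgeR 90 and 26, and with DESeq2 31 and 3. At the 110 genes with a raised window and a shared promoter, 9 of 147 tested promoter windows were raised (6.12%) and 0 lowered, with 30 at an unadjusted limma p under 0.05, and edgeR and DESeq2 also lowered 0. The raised ones were those of Capg, which encodes an actin-capping protein (12.7 and 15.9 against 62.9 and 68.6, a relative log2 change of 2.39, SE 0.29, limma adjusted p = 3.80e-04), Chst11, Lat2, Glipr1 (2 windows), H2-Eb1, Syne1, Tnfaip3 and Sgms1. At H2-Eb1 the promoter window, at 737 bp, held 25.4 and 28.3 against 83.2 and 74.4 (1.78, SE 0.25, limma adjusted p = 0.00188). Its raised distal window lay close by, at 1557 bp. The 110 genes were picked by H3K27ac calls in the same 4 libraries and the same fit. Their promoter counts are therefore not independent of the distal calls.

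Beside several of the most clearly raised distal windows no promoter call was made. The Plin2 promoter held 64.4 and 81.8 normalised tags against 88.0 and 95.7 (limma adjusted p = 0.396), that of Rab21 90.8 and 103 against 89.1 and 92.0 (0.833), and that of Osbpl8 32.7 and 19.5 against 58.1 and 35.9 (0.122). Tnfaip3 had 2 promoter windows of different outcome. The one at −227 bp was raised (16.9 and 17.2 against 42.1 and 34.3, adjusted p = 0.0340), and the one at 759 bp was not called (53.9 and 50.4 against 66.7 and 78.5, 0.247). A promoter that missed the threshold is not shown to be unchanged.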

How the data were processed

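Members and gene lists were chosen with earlier results of these data known. Chromatin immunoprecipitation sequencing tags of H3K27ac were deposited as a signal for each merged ATAC window, which HOMER had normalised to 10000000 tags a library, per the file headers. HOMER, DESeq2, Bowtie2 and the builds GRCm38 and mm10 are named per the submitters' processing notes, without versions. The deposited score columns hold the ATAC peak score, an enrichment score (LXR and P300) and the IDR score; the ATF3 lists name no columns, and their IDR score was read from its place and range. LXR and P300 lists used an IDR threshold of 0.05, per the file headers, and for ATF3 the sources used here state none.

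Whole tags were recovered from the deposited signal (100% of values within 0.02 of a whole count). limma 3.58.1 (trended variance, R 4.3.3) was fitted to log2(value + 1) of the windows kept by filterByExpr of edgeR 4.0.16, with control and NASH diet as groups of 2 libraries. A fold change on this scale understates that of low windows. Sites sharing 1 bp or more with a window were joined to it (bedtools 2.31.1). Alternatives were TMM scaling, edgeR and DESeq2 1.42.0 on recovered tags, other pseudocounts, filters, distances and overlaps, a replicate block and leaving out each library. The method was tested on simulated data, with changes planted only in well-covered windows. Most windows of the set hold fewer tags, so that test does not cover them. Named windows were the 12 raised and 5 lowered with the smallest adjusted p (1 per gene, predicted genes left out), up to 3 per direction of each gene list (or its window with the highest level where none was called), the 5 with the highest mean and the 5 with the smallest adjusted p where all 3 factors were gained; others named were chosen after their values were seen. A planned motif search in the windows was not run for lack of a genome.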

Additional observations from a re-analysis of the deposited data

How the results depend on the processing

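The set had more raised than lowered windows under every alternative that made a call. Lowered windows numbered 10 with TMM scaling, 13 with edgeR and 1 with DESeq2, which raised 144. Without a filter limma called 0 windows of the set in either direction (1161 at an unadjusted p under 0.05) and 0 promoters in either direction. Leaving out 1 library gave 59 to 245 raised and 7 to 26 lowered windows, a median relative change of 0.69 to 0.87, and 15 to 205 lowered promoters; raised promoters numbered 15 to 61. The median change, 0.62, was 0.66 with edgeR, 0.67 with DESeq2, 0.50 with a pseudocount of 4, 0.57 without a filter, 0.52 with the filter blind to diet and 0.71 beyond 3000 bp. Promoters numbered 81 raised and 17 lowered with TMM scaling, 90 and 26 with edgeR, and 3 lowered with DESeq2.

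Replicate numbers are only shared names (correlation of same-numbered deviations 0.040). A replicate block gave 307 raised and 36 lowered windows and 107 lowered promoters, and changed no call of the 53 named windows. Of these, 16 calls ended with DESeq2, 3 with TMM scaling and 20 without either NASH library in turn; Runx2, Mef2c and Abca1 could not be tested without 1 of these. Before the median was subtracted, the log2 change at Oas3 was 0.032. It was −0.21 without control library 1 and −0.07 without NASH library 1, against medians of all tested windows of −0.18 and −0.33. The highest value when 1 library was left out was 0.28. At Fcgr4 the change before subtraction was −0.22, and it was 0.044 with TMM scaling and 0.0073 with DESeq2. The medians were −0.26, −0.0039 and −0.012 in these settings, so Fcgr4 lay above the median in each. Requiring an overlap of 50% of the window gave LXR sites at 11.1% and 38.5% (control and NASH), ATF3 at 3.27% and 48.7% and P300 at 3.54% and 37.6%. Sites at the highest IDR score alone gave 5.81% and 23.6%, 1.67% and 37.2%, and 1.39% and 22.7%, where the ATF3 column was unnamed and its reading as an IDR score is an assumption. Beyond 3000 bp ATF3 NASH sites were at 51.8%. The cause was not tested. With a median of 1 to 4 tags per window, depth limits single windows, and 4420 were not tested.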
